A study of Rattus norvegicus with 65 samples.

Results

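Immediate early genes are transcribed within minutes of a stimulus from factors that are already in the cell, and their mRNAs and proteins are short-lived. The genes followed here were Fos, Fosb, Fosl2, Jun, Junb, Jund, Egr1, Ier2, Ier3 and Myc. They were chosen by their symbols, with earlier results of these data known, and all 10 had a row in the table of 14554 genes. The study treated primary neonatal rat cardiomyocytes, heart muscle cells isolated from newborn rats, with drugs at concentrations picked for their effects on these cells, and sequenced polyA RNA. Treatment lasted 6 or 24 hours, with 10 mM 5FU (5-fluorouracil), 2.5 mM Ace (acetaminophen) or 1.25 μM Dox (doxorubicin). In the paper's own tests, run on separate cultures, this Dox concentration raised cell death significantly at 24 hours. Those of 5FU and Ace did not. DMSO1, which holds 1% DMSO, was the control for 5FU, and DMSO2, which holds 0.25% DMSO, was the control for both Ace and Dox. There were 6 libraries each of 5FU, Ace and DMSO1 at 6 hours and of 5FU and DMSO1 at 24 hours, and 7 each of Dox and DMSO2 at 6 hours and of Ace, Dox and DMSO2 at 24 hours, which makes 65 libraries in 10 groups. All cells had grown in serum after plating, were deprived of serum overnight and were treated in medium without serum, the DMSO controls included. The hearts of 3 litters were pooled into 1 preparation, from which all cultures were plated. A p-value therefore measures the spread between parallel cultures and not between animals.

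Fos, Fosb and Fosl2 encode members of the FOS family, and Jun, Junb and Jund members of the JUN family. A FOS protein binds DNA only when paired with a partner, usually a JUN protein, and the pair forms AP-1, which binds the sequence TGANTCA. JUN proteins also pair with each other or with ATF proteins. Egr1 encodes a zinc finger factor that binds GC-rich sites, Myc encodes a factor that binds CACGTG with its partner MAX and promotes growth and ribosome production, and Ier2 and Ier3 encode small regulatory proteins of the nucleus and of cell survival. In heart muscle, these genes are known to respond to stretch, to hormones that cause growth of the cells and to stress. MAP kinases act on serum response factor and its partners at the CArG box and on CREB and ATF factors at TGACGTCA to start transcription of many of them.

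Library totals ran from 14332827 to 25738297 estimated counts. Levels are given as CPM, the counts scaled to a common library total with TMM factors. CPM is not corrected for transcript length, so levels are compared between groups for a gene and not between genes. Member counts ran from 9 reads, for Fosb in a DMSO1 library at 24 hours, to 8285 reads, for Jund in a 5FU library at 6 hours. The precision of most members is therefore set by the spread between cultures, and that of Fosb in the controls and in 5FU at 24 hours, where it had between 9 and 43 reads, also by counting. Of 12 cardiomyocyte markers 11 were in the table, and their summed level lay between 20740 and 70660 CPM over all libraries. The 10 fibroblast markers summed to between 1949 and 20020 CPM, so the cultures also held RNA of other heart cells. Library 1 of DMSO1 at 24 hours, library 1 of 5FU at 6 hours and library 7 of Dox at 24 hours had the lowest correlations of log2 CPM over all genes with the rest of their groups, at 0.986, 0.988 and 0.988. Library 3 of DMSO1 at 6 hours was closer to DMSO2 at 6 hours (r = 0.993) than to its own group (r = 0.990). Calls of members that turned on these 4 libraries are given with and without them. The set was chosen after the results had been seen. It first held 3 libraries, and library 7 of Dox at 24 hours was added afterwards. Calls that differed between the 3 and the 4 are given for both. Left in were libraries 2 and 4 of DMSO1 at 24 hours. They were slightly closer to DMSO2 at 24 hours (r = 0.9936 and 0.9943) than to their own group (r = 0.9933 and 0.9935). Library 7 of Dox at 6 hours was also left in, at r = 0.9894 with its own group.

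RefSeq promoter sequences of the rat assembly GRCr8 were at hand for 6 of the 10 members: Fosb, Fosl2, Junb, Jund, Egr1 and Ier2. In the 250 bases upstream of the start, searched on both strands, TGACGTCA was found in Jund and Ier2, and in 1.59% of the 33469 promoters searched. The upstream 250 bases of these 2 genes are shown for this shared motif. Egr1, which was higher in Ace and 5FU at 6 hours as Jund and Ier2 were, had no TGACGTCA in its window. Junb is shown beside them as a member with a TATAAA and no TGACGTCA. The Jund sequence is chr16:18769772-18770021 on the minus strand, the Ier2 sequence chr19:40399123-40399372 on the plus strand and the Junb sequence chr19:40080876-40081125 on the plus strand. Each is read 5′ to 3′ toward the start, and the capitals mark the matches to the motifs searched.
Jund: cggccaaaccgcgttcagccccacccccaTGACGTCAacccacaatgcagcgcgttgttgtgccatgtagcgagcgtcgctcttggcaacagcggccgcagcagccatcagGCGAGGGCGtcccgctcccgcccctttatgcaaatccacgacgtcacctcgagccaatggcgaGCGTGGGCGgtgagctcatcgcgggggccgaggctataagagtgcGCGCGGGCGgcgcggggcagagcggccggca
Ier2: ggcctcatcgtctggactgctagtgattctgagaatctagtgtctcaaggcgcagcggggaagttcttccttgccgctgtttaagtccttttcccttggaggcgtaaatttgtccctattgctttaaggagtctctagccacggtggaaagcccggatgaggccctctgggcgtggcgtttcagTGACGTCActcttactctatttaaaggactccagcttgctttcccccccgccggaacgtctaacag
Junb: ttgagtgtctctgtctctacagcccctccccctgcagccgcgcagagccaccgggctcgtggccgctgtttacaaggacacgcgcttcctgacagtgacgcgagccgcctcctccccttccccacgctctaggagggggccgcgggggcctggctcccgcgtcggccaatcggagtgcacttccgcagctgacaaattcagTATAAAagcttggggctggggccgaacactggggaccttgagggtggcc

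The TGACGTCA began 221 bases upstream of the start in Jund and 66 bases upstream in Ier2. Jund also held GCGNGGGCG, the letters EGR1 is known to bind, at 139, 76 and 31 bases upstream, and Fosl2 held it at 249 bases, against 4.29% of all promoters. Egr1 had 2 CArG boxes, at 105 and 83 bases upstream, a motif that 1.5% of all promoters held. TATAAA stood 49 bases upstream in Junb and 180 bases upstream in Fosb, against 12.9% of all promoters. TGANTCA (6.34% of all promoters) and CACGTG (5.59%) matched none of the 6 members. These matches are letters in a short window and show no binding.

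All the drugs changed members of the group. More members rose than fell in each comparison, but in Dox at 6 hours only by 4 to 3. A member was called changed at a Benjamini-Hochberg FDR below 0.01 over all 14554 genes, in edgeR's quasi-likelihood test. In 5FU at 6 hours 8 members rose, 1 fell and 1 was not called, where 23.4% of all genes rose and 24.5% fell. In Ace at 6 hours 4 rose and none fell, against 16.5% and 15.2% of all genes. In Dox at 6 hours 4 rose, 3 fell and 3 were not called, which is near the shares of all genes, 31.5% and 32.7%. At 24 hours 5 rose and 1 fell in 5FU, against 28% and 27.8% of all genes. In Ace at 24 hours 3 rose and 1 fell, against 18.2% and 19.1%, and in Dox 9 rose and none fell, against 40.4% and 41% of all genes. The median log2 fold change of the 10 members was 0.91 in 5FU, 0.33 in Ace and 0.05 in Dox at 6 hours, and 0.43, 0.24 and 1.41 at 24 hours. The median over all genes tested was within 0.01 of 0 in each of these comparisons. Fos and Egr1 rose in all 6 drug comparisons, and Myc rose in none and fell in 3.

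**Figure D1:**
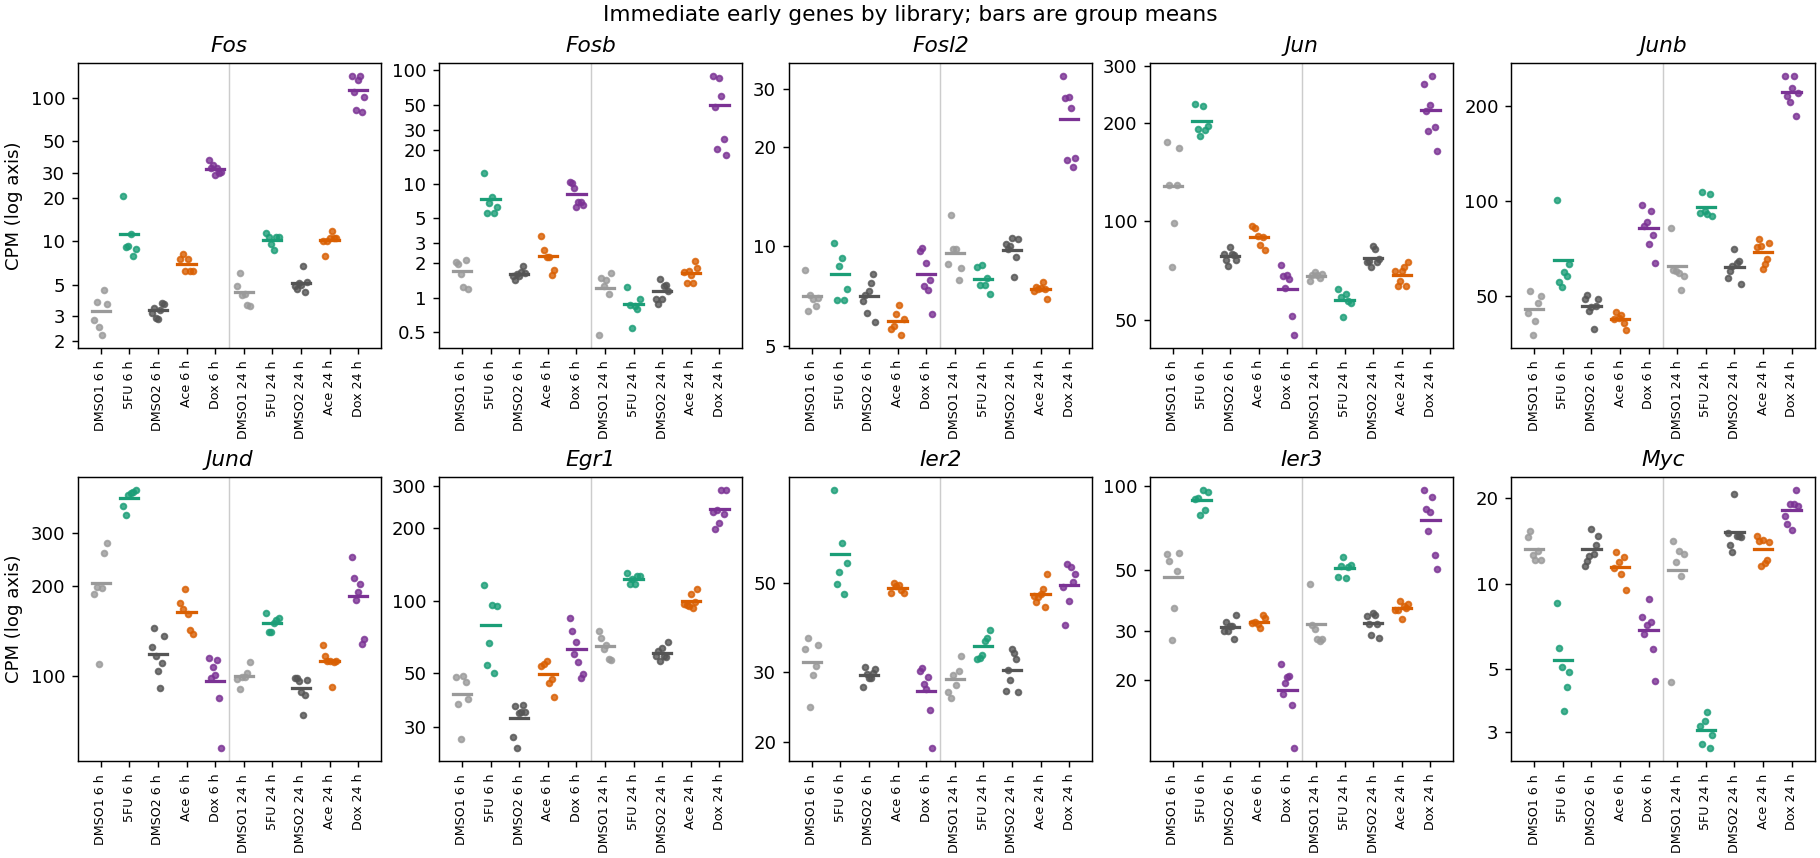
CPM on a log axis for each of the 10 members in each of the 65 libraries, with 6 and 24 hours set apart by a grey line; points are libraries and bars are group means. Fos spans from 2.23 to 143 CPM, with Dox at 24 hours above every other group, and Myc is lowest in 5FU at 24 hours.

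Fos, the founding FOS gene, was lowest in the controls and highest in Dox. Its level (lowest, median and highest library) was 2.23, 3.24 and 4.55 CPM in DMSO1 at 6 hours, and 2.89, 3.29 and 3.72 CPM in DMSO2 at 6 hours. At the same time point it was 7.86, 9.28 and 20.8 CPM in 5FU, 6.17, 6.90 and 8.16 CPM in Ace, and 29.0, 32.4 and 36.9 CPM in Dox. All libraries of each drug were above all libraries of its control. The increase was 9.77-fold in Dox (log2 fold change 3.29, SE 0.15), 3.46-fold in 5FU (1.79, SE 0.17) and 2.12-fold in Ace (1.08, SE 0.17), with adjusted p-values of 9.9e-29, 5.5e-14 and 3.7e-07. The 5FU value leaned on library 1, the one at 20.8 CPM, and was 1.46 without the 4 libraries named above.

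At 24 hours Fos was 3.53, 4.25 and 6.02 CPM in DMSO1 and 4.4, 4.97 and 6.70 CPM in DMSO2. It was 8.72, 10.7 and 11.4 CPM in 5FU, 7.91, 10.5 and 11.8 CPM in Ace, and 80.0, 110 and 143 CPM in Dox. Again no library of a drug overlapped its control, and Dox at 24 hours lay above all other groups, with Dox at 6 hours next. The log2 fold changes were 4.47 (SE 0.15) in Dox, a 22.2-fold increase, 1.21 (SE 0.17) in 5FU and 0.99 (SE 0.15) in Ace, with adjusted p-values of 1.3e-37, 5.6e-09 and 1.1e-07. Only 2.65% of all genes had a larger absolute log2 fold change than Fos in Dox at 24 hours. The 8 other groups formed a run in which neighbours overlapped.

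Fosb, which encodes a close relative of FOS, had the widest span of the members, with a highest group mean 56.7 times the lowest. In the controls it was scarce: 1.19, 1.8 and 2.13 CPM in DMSO1 and 1.43, 1.62 and 1.88 CPM in DMSO2 at 6 hours. It stood at 5.54, 6.55 and 12.6 CPM in 5FU, 1.58, 2.28 and 3.51 CPM in Ace and 6.31, 7.01 and 10.4 CPM in Dox at 6 hours. The 5FU and Dox libraries were all above their controls and overlapped each other, while the Ace libraries overlapped DMSO2. Fosb rose 4.33-fold in 5FU (log2 fold change 2.12, SE 0.28, adjusted p = 3.3e-09) and 5.00-fold in Dox (2.32, SE 0.27, adjusted p = 1.0e-11). In Ace the log2 fold change was 0.53 (95% interval -0.09 to 1.15, adjusted p = 0.17).

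By 24 hours the Fosb levels of 5FU and Dox had parted. Fosb was 0.47, 1.34 and 1.63 CPM in DMSO1, and 0.54, 0.85 and 1.23 CPM in 5FU, with overlapping libraries and a log2 fold change of -0.48 (95% interval -1.30 to 0.34, adjusted p = 0.31). In DMSO2 it was 0.88, 1.14 and 1.46 CPM and in Ace 1.34, 1.66 and 2.08 CPM, with a log2 fold change of 0.54 (adjusted p = 0.19). In Dox it reached 18.0, 47.9 and 89.4 CPM, a 43.1-fold increase (log2 fold change 5.43, SE 0.27, adjusted p = 1.1e-27). The 7 Dox libraries read 89.4, 47.9, 20.1, 85.6, 60.2, 24.7 and 18.0 CPM, so libraries 3, 6 and 7 stood below the others, and all were above every library of every other group. The same 3 libraries had the lowest Fosl2 in Dox at 24 hours, at 18.3, 17.4 and 18.6 CPM against 26.2 to 32.8 CPM in the other 4. They were also the lowest of the group for Fos, Jun and Jund, but not for Junb or Egr1. Of these 3, library 7 alone was among the 4 libraries that stood apart.

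Fosl2, which encodes FRA-2, a FOS protein with a longer-lasting response, changed less. In 5FU and Dox at 6 hours its log2 fold changes of 0.22 and 0.22 were not called (adjusted p = 0.11 and 0.072). It was 8.08, 10.0 and 10.6 CPM in DMSO2, 6.92, 7.45 and 7.82 CPM in Ace and 17.4, 26.2 and 32.8 CPM in Dox at 24 hours. The Ace libraries were all below DMSO2 and the Dox libraries all above it. Fosl2 fell in Ace (log2 fold change -0.40, SE 0.11, adjusted p = 0.0017) and rose 2.48-fold in Dox (1.31, SE 0.10, adjusted p = 3.2e-18). In 5FU at 24 hours the value was -0.27 (adjusted p = 0.044), and in Ace at 6 hours -0.25 (adjusted p = 0.082).

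Jun, which encodes the JUN subunit that is itself an AP-1 target, separated 5FU from Dox at 6 hours. It was 72.6, 129 and 175 CPM in DMSO1 and 183, 194 and 229 CPM in 5FU, without overlap, and rose 1.58-fold (log2 fold change 0.66, SE 0.11, adjusted p = 7.6e-07). In DMSO2 it was 72.8, 79.1 and 83.6 CPM, in Ace 81.6, 90.1 and 96.7 CPM and in Dox 45, 66.8 and 73.6 CPM. Dox overlapped its control and its log2 fold change of -0.33 (SE 0.10, adjusted p = 0.0043) was called. That decrease was no longer called without library 6 (adjusted p = 0.017) or library 7 (adjusted p = 0.023) of Dox at 6 hours. In Ace at 6 hours the log2 fold change of Jun was 0.20 and was not called (adjusted p = 0.13). It was called in a fit of the compared groups only (0.20, adjusted p = 0.0015).

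At 24 hours Jun was raised in Dox and no longer in 5FU. Dox libraries held 165, 219 and 279 CPM against 72.7, 75.7 and 83.9 CPM in DMSO2, a 2.84-fold increase (log2 fold change 1.51, SE 0.10, adjusted p = 8.0e-21). The 5FU libraries held 50.9, 57.9 and 61.9 CPM and were all below the 65.9, 68.7 and 70.0 CPM of DMSO1, but the log2 fold change of -0.25 was not called (adjusted p = 0.052). It was called in a fit of the compared groups only (-0.25, adjusted p = 1.3e-04). Jun in Ace was at 63.4, 70.5 and 75.3 CPM, with a log2 fold change of -0.17 (adjusted p = 0.18).

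Junb, whose product pairs with FOS proteins and is a weaker activator than JUN, rose in 5FU and Dox at both time points and was not called in Ace. At 6 hours it was 37.9, 46.1 and 51.8 CPM in DMSO1, 53.6, 58.8 and 101 CPM in 5FU, 39.4, 46.8 and 50.6 CPM in DMSO2 and 63.6, 83.7 and 97.4 CPM in Dox. Neither drug overlapped its control. The log2 fold change was 0.51 (SE 0.10, adjusted p = 1.5e-05) in 5FU and 0.82 (SE 0.09, adjusted p = 1.0e-11) in Dox. The 5FU value was 0.29 (adjusted p = 0.0017) without the 4 libraries that stood apart, which include the 1 at 101 CPM. At 24 hours Junb reached 89.5, 92.2 and 107 CPM in 5FU and 186, 219 and 248 CPM in Dox, against 52.3, 59.8 and 82.4 CPM in DMSO1 and 54.5, 62.4 and 70.7 CPM in DMSO2. In Ace its log2 fold changes were -0.14 at 6 hours (adjusted p = 0.26) and 0.16 at 24 hours (adjusted p = 0.16). At 24 hours it rose 1.54-fold in 5FU (log2 fold change 0.63, SE 0.10, adjusted p = 1.5e-07) and 3.57-fold in Dox (1.84, SE 0.09, adjusted p = 2.1e-27).

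Jund, the JUN gene that most cells express without a stimulus, was highest in 5FU at 6 hours. There it was 345, 404 and 418 CPM, above the 110, 197 and 277 CPM of DMSO1 and above every library of every other group. The increase was 1.92-fold (log2 fold change 0.94, SE 0.13, adjusted p = 1.4e-08). In DMSO2 at 6 hours Jund was 91.5, 117 and 145 CPM, in Ace 138, 164 and 194 CPM and in Dox 57.5, 101 and 115 CPM, and both drugs overlapped DMSO2. Jund rose in Ace (log2 fold change 0.46, SE 0.13, adjusted p = 0.0026), and its value in Dox was -0.29 (adjusted p = 0.032). The Ace increase fell just short of the threshold without library 3 of Ace (0.41, adjusted p = 0.0101) or library 5 of DMSO2 (0.41, adjusted p = 0.0102). At 24 hours Jund was 128, 191 and 249 CPM in Dox and 140, 152 and 162 CPM in 5FU, above the 74.3, 96.1 and 98.9 CPM of DMSO2 and the 90.3, 99.5 and 112 CPM of DMSO1. The log2 fold changes were 1.02 (SE 0.13, adjusted p = 5.9e-11) in Dox and 0.59 (SE 0.14, adjusted p = 1.4e-04) in 5FU, and the value in Ace was 0.29 (adjusted p = 0.047).

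**Figure D2:**
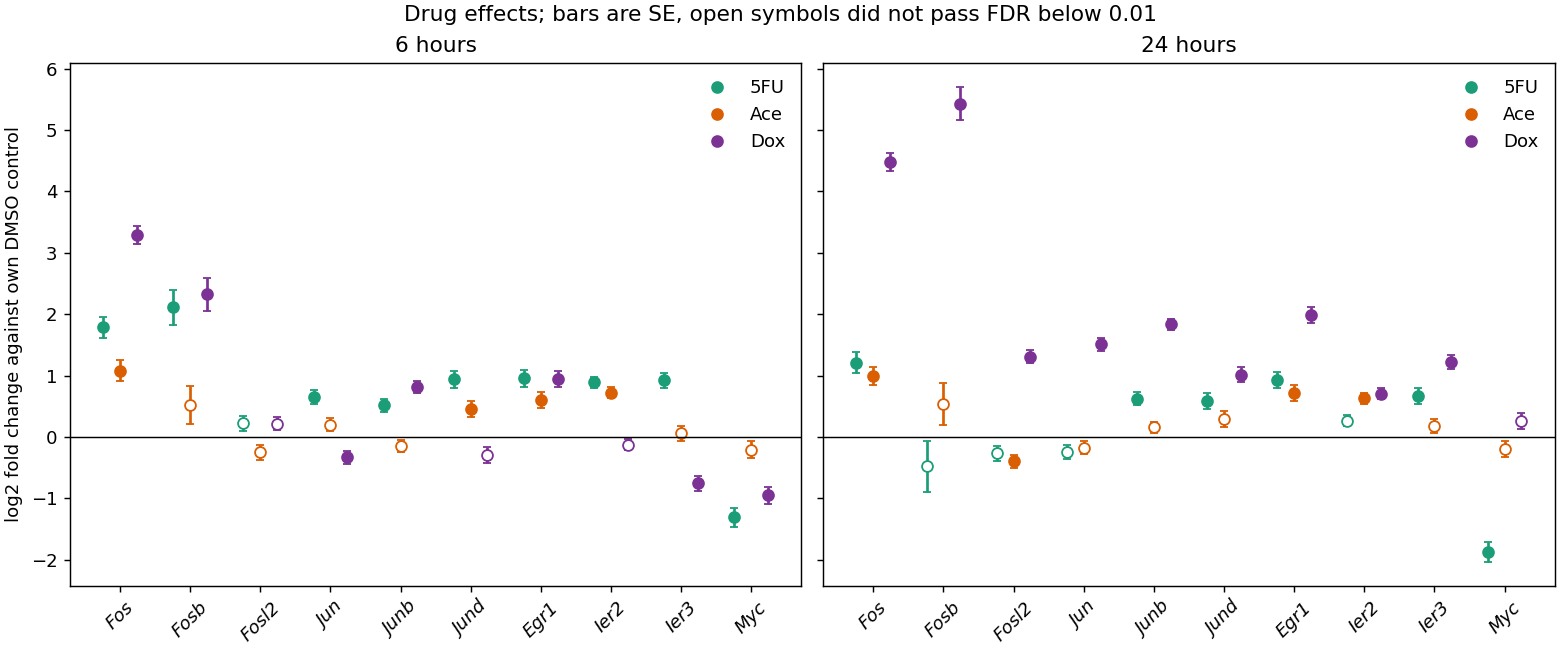
Log2 fold change of each member against its own DMSO control at 6 and at 24 hours, with SE; filled symbols passed FDR below 0.01 and open symbols did not. At 24 hours 9 of the 10 Dox symbols are filled and above 0, led by Fosb at 5.43 and Fos at 4.47, and Myc in 5FU lies lowest at -1.87.

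Egr1 rose in every drug at both time points, and its controls rose with culture time. At 6 hours it was 26.6, 42.8 and 48.6 CPM in DMSO1, 50.1, 81.1 and 116 CPM in 5FU, 24.5, 34.6 and 36.9 CPM in DMSO2, 39.8, 50.5 and 56.5 CPM in Ace and 47.8, 60.5 and 84.7 CPM in Dox. No drug overlapped its control. The log2 fold changes were 0.95 (SE 0.14) in 5FU, 0.60 (SE 0.13) in Ace and 0.95 (SE 0.13) in Dox, with adjusted p-values of 1.4e-08, 1.6e-04 and 1.6e-09. At 24 hours it was 56.7, 64.5 and 75.3 CPM in DMSO1, 117, 125 and 130 CPM in 5FU, 56.0, 59.0 and 67.4 CPM in DMSO2, 93.3, 96.9 and 112 CPM in Ace and 199, 233 and 289 CPM in Dox. The 3 drugs formed 3 separate steps above the controls, Ace below 5FU and 5FU below Dox. Egr1 rose 3.97-fold in Dox (log2 fold change 1.99, SE 0.13), 1.91-fold in 5FU (0.93, SE 0.13) and 1.64-fold in Ace (0.72, SE 0.12), with adjusted p-values of 9.3e-23, 1.3e-08 and 1.8e-06.

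Ier2, a nuclear protein gene, had the narrowest span of the members and rose in Ace at both time points. Its highest group mean was 2.19 times its lowest. At 6 hours it was 24.5, 32.6 and 36.3 CPM in DMSO1, 46.8, 54.5 and 85.3 CPM in 5FU, 27.4, 29.6 and 30.8 CPM in DMSO2, 47.0, 48.5 and 49.9 CPM in Ace and 19.3, 28.0 and 30.6 CPM in Dox. The 5FU and Ace libraries were all above their controls, and Dox overlapped DMSO2. Ier2 rose in 5FU (log2 fold change 0.89, SE 0.09, adjusted p = 1.3e-12) and in Ace (0.72, SE 0.09, adjusted p = 1.2e-09), with -0.13 (adjusted p = 0.19) in Dox. At 24 hours it was 26.6, 30.3 and 34.1 CPM in DMSO2, 43.5, 46.2 and 52.4 CPM in Ace and 39.1, 50.1 and 55.5 CPM in Dox, both above the control. The log2 fold changes were 0.63 (SE 0.09, adjusted p = 9.3e-09) in Ace and 0.71 (SE 0.09, adjusted p = 5.3e-11) in Dox, with a difference of 0.08 between them (95% interval -0.095 to 0.245, adjusted p = 0.41). In 5FU at 24 hours Ier2 was 0.27 on the log2 scale (adjusted p = 0.0117) and missed the threshold, and it passed with DESeq2 (0.27, adjusted p = 0.0092) and without the 4 libraries that stood apart (0.24, adjusted p = 0.0082).

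Ier3, which encodes a stress-inducible protein that acts on cell survival, moved in opposite directions in 5FU and Dox at 6 hours. It was 27.9, 51.6 and 57.3 CPM in DMSO1 and 78.7, 90.3 and 97.1 CPM in 5FU, and 28.1, 31.4 and 34.4 CPM in DMSO2 and 11.4, 19.5 and 22.8 CPM in Dox. There was no overlap in either comparison. Ier3 rose 1.90-fold in 5FU (log2 fold change 0.92, SE 0.12, adjusted p = 1.3e-09) and fell 1.69-fold in Dox (-0.75, SE 0.12, adjusted p = 1.3e-07). In Ace the log2 fold change was 0.06 at 6 hours (adjusted p = 0.72) and 0.18 at 24 hours (adjusted p = 0.20). At 24 hours Ier3 was 46.7, 51.2 and 55.4 CPM in 5FU and 50.4, 80.7 and 96.7 CPM in Dox, above the 27.8, 29.4 and 44.3 CPM of DMSO1 and the 28.4, 31.9 and 35.0 CPM of DMSO2. The increases were 1.59-fold in 5FU (log2 fold change 0.67, SE 0.12, adjusted p = 4.0e-06) and 2.34-fold in Dox (1.23, SE 0.11, adjusted p = 2.2e-15).

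Myc fell in 3 drug comparisons and rose in none. At 6 hours it was 12.1, 12.8 and 15.4 CPM in DMSO1 and 3.55, 4.98 and 8.54 CPM in 5FU, and 11.6, 12.7 and 15.6 CPM in DMSO2 and 4.53, 7.17 and 8.83 CPM in Dox. Every 5FU and Dox library was below its controls. Myc fell 2.48-fold in 5FU (log2 fold change -1.31, SE 0.15, adjusted p = 5.1e-11) and 1.93-fold in Dox (-0.95, SE 0.14, adjusted p = 1.4e-08). In Ace it was 9.49, 11.6 and 12.9 CPM, with a log2 fold change of -0.21 (adjusted p = 0.23). At 24 hours Myc in 5FU was 2.63, 3.05 and 3.52 CPM, below every library of every other group, against 4.5, 12.3 and 14.1 CPM in DMSO1. The decrease was 3.66-fold (log2 fold change -1.87, SE 0.17, adjusted p = 3.1e-15), and -2.04 without the libraries that stood apart, which include the DMSO1 library at 4.5 CPM. In Dox at 24 hours Myc was 15.4, 18.8 and 21.5 CPM, overlapping the 13, 14.8 and 20.7 CPM of DMSO2, with a log2 fold change of 0.26 (SE 0.13, adjusted p = 0.061). This call turned on which libraries were left out: without the first 3 that stood apart Myc was called higher (0.26, adjusted p = 0.0081), and without all 4 it was not (0.25, adjusted p = 0.018). In Ace at 24 hours its value was -0.20 (adjusted p = 0.20).

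Effects at 24 and 6 hours were compared directly, as the log2 fold change at 24 hours minus that at 6 hours. For Dox this difference was above 0 and called for all 10 members, where 34% of all genes had such a higher difference. It was 3.11 (SE 0.40) for Fosb, 1.98 (SE 0.17) for Ier3, 1.84 (SE 0.15) for Jun, 1.31 (SE 0.18) for Jund and 1.21 (SE 0.19) for Myc, and between 0.83 (Ier2) and 1.18 (Fos) for the others. The largest adjusted p among the 10 was 1.3e-06, for Fos. For Jun and Ier3 the sign turned, from a decrease at 6 hours to an increase at 24 hours. In fits that left out 1 library, the 6-hour decrease was called in 12 of 14 for Jun and in 14 of 14 for Ier3. The Jun libraries of Dox at 6 hours overlapped their control. For 5FU the difference was called for 3 members, all lower at 24 hours, against 19.2% of all genes. These were Fosb (-2.59, SE 0.50, adjusted p = 1.6e-05), Jun (-0.90, SE 0.16, adjusted p = 2.8e-06) and Ier2 (-0.62, SE 0.13, adjusted p = 7.8e-05). For Ace no member was called, against 11.6% of all genes, and the smallest adjusted p was 0.070, for Jun at -0.37 (unadjusted p = 0.016). Junb in Ace had an unadjusted p of 0.033, and DESeq2 called none of the 10. A fit of the compared groups only called Jun (-0.37, adjusted p = 5.5e-05) and Junb (0.29, adjusted p = 0.0062).

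**Figure D3:**
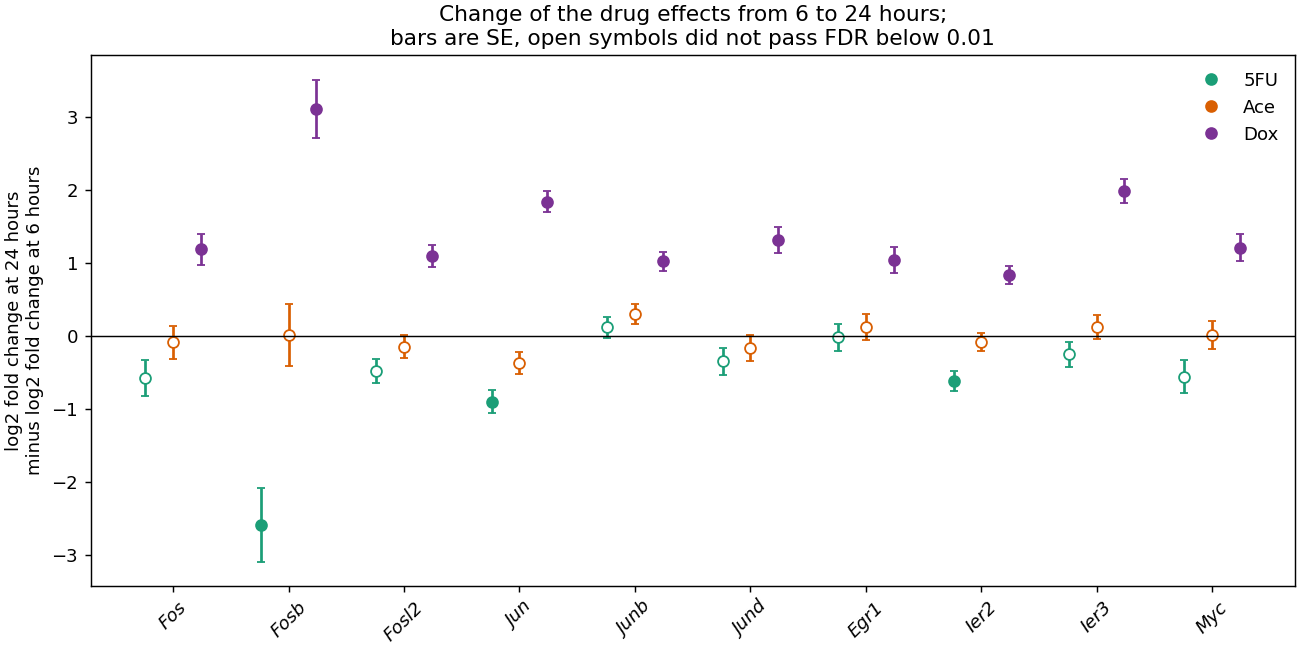
Difference between the log2 fold changes at 24 and 6 hours for each member and drug, with SE; filled symbols passed FDR below 0.01 and open symbols did not. All 10 Dox symbols are filled and above 0, from 0.83 for Ier2 to 3.11 for Fosb, and the 3 filled 5FU symbols are below 0.

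The drugs were also compared with each other at the same time, each relative to its own control. The control and its DMSO share differ between 5FU and the other drugs, and Ace and Dox share DMSO2. At 6 hours the Dox effect was larger than the 5FU effect for Fos, by 1.5 on the log2 scale (SE 0.23, adjusted p = 1.2e-07). It was smaller for Ier3 (-1.68, SE 0.17), Jund (-1.23, SE 0.18), Ier2 (-1.02, SE 0.13) and Jun (-0.98, SE 0.15). These 5 members were called, which is near the share of all genes, 45.9%. For Egr1 and Fosl2 the Dox and 5FU effects at 6 hours differed by -0.01 and -0.00, with SEs of 0.19 and 0.16. Junb (0.30) and Myc (0.36) were not called at 6 hours (adjusted p = 0.054 and 0.14), and both were called without the 4 libraries that stood apart (0.52 and 0.56, adjusted p = 2.4e-05 and 0.0028). At 24 hours 9 members had a larger effect in Dox than in 5FU, against 71.1% of all genes called in either direction, with Jund as the exception (0.43, SE 0.18, adjusted p = 0.030). Jund was called without the 4 libraries that stood apart (0.51, adjusted p = 0.0047), not without the first 3 (0.45, adjusted p = 0.015), and also without library 6 of Dox (0.52, adjusted p = 0.0083). The largest of these differences were 5.91 (SE 0.51) for Fosb, 3.26 (SE 0.22) for Fos and 2.13 (SE 0.21) for Myc. That for Ier3 (0.56, adjusted p = 0.0021) was not called without library 1 of DMSO1 (0.44, adjusted p = 0.013).

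Dox and Ace differed at 6 hours for 9 members, 4 of them higher in Dox and 5 lower, against 62.1% of all genes, and Egr1 was not called (0.35, SE 0.13, adjusted p = 0.015). Egr1 was called with DESeq2's test (adjusted p = 0.0053) and its size factors (adjusted p = 0.0077), and without the libraries that stood apart (adjusted p = 0.0055 with 4 left out and 0.0021 with 3). Fos (2.21, SE 0.15) and Fosb (1.79, SE 0.27) were further above the control in Dox, and Ier2 (-0.85, SE 0.09), Ier3 (-0.82, SE 0.12) and Jund (-0.75, SE 0.13) were lower in Dox than in Ace. At 24 hours 9 members were higher in Dox than in Ace, against 80.6% of all genes called in either direction, with Ier2 not called. Ace and 5FU differed at 6 hours for 4 members, against 30.9% of all genes: Myc was higher in Ace by 1.10 (SE 0.21), and Fosb (-1.59, SE 0.42), Ier3 (-0.86, SE 0.17) and Junb (-0.65, SE 0.14, and -0.43 without the 4 libraries that stood apart) were lower. At 24 hours 2 members were called, against 37.3% of all genes: Myc, by 1.67 (SE 0.21), and Junb, by -0.47 (SE 0.14). Without the 4 libraries that stood apart 4 were called, Ier2 and Ier3 being added.

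The controls differed between the DMSO shares at 6 hours for the members Jun, Jund and Ier3. The 6 DMSO1 libraries read 175, 129, 72.6, 98.7, 129 and 169 CPM for Jun, against 72.8 to 83.6 CPM in DMSO2. For Jund they read 187, 198, 110, 196, 258 and 277 CPM, against 91.5 to 145 CPM. Library 3, the one that resembled DMSO2 over all genes, was at the DMSO2 level for both, and for Ier3 too, at 27.9 CPM where DMSO2 ran from 28.1 to 34.4 CPM. The log2 differences were 0.79 (SE 0.13, adjusted p = 3.3e-06) for Jund, 0.72 (SE 0.11, adjusted p = 4.6e-07) for Jun and 0.59 (SE 0.12, adjusted p = 1.0e-04) for Ier3. So 3 members were higher in DMSO1 and none lower, against 9.87% and 6.6% of all genes. Without the libraries that stood apart Egr1 joined them (0.43, adjusted p = 0.0040). Marker levels moved with this comparison, the cardiomyocyte list summing to between 45940 and 67890 CPM in DMSO1 and between 41880 and 46770 CPM in DMSO2, and the fibroblast list to between 6537 and 10960 and between 9732 and 14510 CPM. Their part in the result was not tested. At 24 hours none of the 10 members was called by edgeR or by DESeq2, against 0.433% of all genes, and 1 member, Myc, had an unadjusted p below 0.05 in edgeR's quasi-likelihood test. The log2 difference of Myc was -0.45 (adjusted p = 0.059), and -0.29 without library 1 of DMSO1, the one at 4.5 CPM.

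From 6 to 24 hours 7 members changed over both controls, where time in culture and time in DMSO cannot be told apart. Egr1 (0.77, SE 0.09), Fos (0.55, SE 0.13), Fosl2 (0.45, SE 0.08) and Junb (0.43, SE 0.07) rose, against 32.7% of all genes, and Jund (-0.70, SE 0.09), Jun (-0.47, SE 0.08) and Ier3 (-0.26, SE 0.08) fell, against 31.9%. Both counts are near these shares, so they say little about the members as a group. The decrease of Jun stood in DMSO1 (-0.92, SE 0.11), where its 6-hour level was raised, and its value was -0.01 (SE 0.10) in DMSO2. For Ier3 the values were -0.56 (SE 0.12) in DMSO1 and 0.04 (SE 0.12) in DMSO2, and for Jund -1.03 (SE 0.14) and -0.37 (SE 0.13). Within DMSO1 6 members were called, against 53.8% of all genes, and within DMSO2 5, against 52.6%. These counts too are near the shares of all genes. The decrease of Ier3 over both controls was called in 21 of the 26 fits that left out a library, and the rise of Fosl2 in DMSO1 missed the threshold without library 2 at 24 hours (0.34, adjusted p = 0.0108). The call of Jund in DMSO2 (adjusted p = 0.0080) was lost in 7 of the 14 fits that left out a library, with the lowest size at -0.32.

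Markers of the cell types moved with the drug comparisons at 24 hours. In Dox the summed fibroblast markers were between 1949 and 4102 CPM, against 15230 to 19020 CPM in DMSO2, and the endothelial markers between 27.4 and 60.1 CPM, against 291 to 387 CPM. The cardiomyocyte markers summed to between 20740 and 26310 CPM in Dox and between 37840 and 49150 CPM in DMSO2. Of the 11, 10 fell, against 41% of all genes. All 10 fibroblast markers fell in 5FU, Ace and Dox at 24 hours, where 27.8%, 19.1% and 41% of all genes fell. None of the fibroblast, cardiomyocyte and endothelial markers in the table was under 0.1 CPM. The summed fibroblast markers were between 5204 and 5874 CPM in 5FU, against 10040 to 20020 CPM in DMSO1, and between 7303 and 9337 CPM in Ace. At 6 hours the endothelial markers were already lower in Dox, between 91.1 and 145 CPM against 264 to 327 CPM. Fewer cells of a type and less RNA per cell cannot be told apart in these bulk samples. The part of these shifts in the values of the immediate early genes was not tested.

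The other genes of the response were taken from lists written for the pathway with earlier results of these data known, so their counts are descriptions. At 6 hours 23.4% of all genes rose and 24.5% fell in 5FU, 16.5% and 15.2% in Ace, and 31.5% and 32.7% in Dox. At 24 hours the shares were 28% and 27.8% in 5FU, 18.2% and 19.1% in Ace, and 40.4% and 41% in Dox. All counts of the lists below stand against these shares. Of 23 other immediate early genes in the table, 19 rose and 1 fell in Dox at 24 hours, with a median log2 fold change of 1.19, where 40.4% of all genes rose and 41% fell. Klf5, a zinc finger factor, rose by 4.29 (SE 0.09), Btg2, an antiproliferative p53 target, by 3.67 (SE 0.12) and Nr4a1, a nuclear receptor, by 3.04 (SE 0.31). In Dox at 6 hours 10 rose and 5 fell, in 5FU 11 rose and 2 fell at 6 hours and 9 rose and 8 fell at 24 hours, and in Ace 7 rose and 4 fell and then 8 rose and 5 fell. In 5FU at 24 hours the largest changes of the list were decreases, of Trib1 (-1.80, SE 0.10), a pseudokinase gene, and of Ccn2 (-1.71, SE 0.24) and Ccn1 (-1.35, SE 0.16), which encode matrix-associated proteins and are also made by fibroblasts.

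Among 11 partners of AP-1 in the table, 8 rose and 2 fell in Dox at 24 hours, with a median of 1.70, against the same shares of all genes. Maff (3.48, SE 0.16), a small MAF gene, Atf3 (3.33, SE 0.18), a stress factor, and Fosl1 (3.32, SE 0.16), the FOS family gene for FRA-1, led them. In 5FU at 6 hours 8 rose and 1 fell, with Atf3 at 2.20 (SE 0.18) and Maf at -1.32 (SE 0.14), and in Ace 4 rose and 1 fell, with Atf3 at 1.25 (SE 0.19). Dox at 6 hours raised 5 of them and lowered 2. At 24 hours 2 rose and 3 fell in 5FU, with the same counts in Ace. Of the 5 genes of the EGR and NAB list, 4 rose and 1 fell in Dox at 24 hours, with Egr2 at 1.38 (SE 0.11) and Nab2, a corepressor of EGR1, at 1.0 (SE 0.08). At 6 hours 3 rose and 1 fell in Dox. The 5FU and Ace comparisons had no more than 2 called genes of this list each.

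Of 15 feedback inhibitors of the MAP kinases, the DUSP, SPRY and SPRED genes with Errfi1, 10 rose and 3 fell in Dox at 24 hours, where 40.4% and 41% of all genes did. In 5FU at 24 hours 2 rose and 10 fell, against 28% and 27.8% of all genes, and in Ace none rose, 7 fell and 8 were not called, against 18.2% and 19.1%. Dusp8 (3.50, SE 0.22), Spry4 (3.06, SE 0.10) and Dusp4 (2.68, SE 0.07) led in Dox. Dusp4 fell in 5FU by 1.48 on the log2 scale (SE 0.09) and Spry1 by 1.52 (SE 0.09), and Spry1 fell by 1.07 (SE 0.08) in Ace. At 6 hours 7 rose and 4 fell in 5FU, 6 rose and 5 fell in Dox, and 5 fell in Ace. Of the 20 upstream kinases and factors 11 rose and 8 fell in Dox at 24 hours, against 40.4% and 41% of all genes. Their largest change was of Crem (1.96, SE 0.08), which encodes CREB-like activators and repressors, and Map2k7, a kinase upstream of JNK, was lower at both 6 hours (-2.10, SE 0.09) and 24 hours (-1.49, SE 0.09). In 5FU 3 rose and 12 fell at 6 hours, against 23.4% and 24.5% of all genes, with Srf at -0.63 (SE 0.11). At 24 hours 6 rose and 5 fell in 5FU, against 28% and 27.8%. In Ace 9 rose and 3 fell at 6 hours and 8 rose and 6 fell at 24 hours.

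Around Myc, 6 of 12 network genes rose and 1 fell in Dox at 24 hours, against 40.4% and 41% of all genes, so the rises say little about this list. Mxd1, which encodes a repressor that competes with MYC for MAX, rose in Dox by 2.09 (SE 0.07) at 6 hours, when Myc fell, and by 3.27 (SE 0.07) at 24 hours, when Myc was not called. Mxd1 also rose in 5FU at 6 hours (0.84, SE 0.07), when Myc fell, and in Ace at 6 hours (0.86, SE 0.07) and 24 hours (0.51, SE 0.06), when Myc was not called. Mycn fell in 5FU at 6 hours (-0.43, SE 0.12) and 24 hours (-1.60, SE 0.12) and rose in Dox at 6 hours (0.88, SE 0.10). In Dox at 6 hours 6 of the network rose and 4 fell, and the counts were 4 and 2 in 5FU at 6 hours, 2 and 3 in 5FU at 24 hours, 4 and 0 in Ace at 6 hours and 2 and 1 in Ace at 24 hours. Of 21 genes of AU-rich element binding and mRNA decay, the route by which many early mRNAs are removed, 12 fell and 5 rose in Dox at 6 hours, against 32.7% and 31.5% of all genes. The largest change of the list there was the rise of Btg2 (2.21, SE 0.11), and Tob1 (-1.35, SE 0.08) and Btg1 (-1.35, SE 0.07) were lower there. At 24 hours 9 of them rose and 5 fell in Dox, and the counts were 9 and 4 in 5FU at 6 hours, 12 and 4 in 5FU at 24 hours, 2 and 3 in Ace at 6 hours and 1 and 3 in Ace at 24 hours.

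Secreted and surface products known to follow the early response rose in Dox at 24 hours, 12 of 15, with 1 lower and a median of 1.57, where 40.4% of all genes rose and 41% fell. Lif, a cytokine of the interleukin 6 family, rose by 5.01 (SE 0.23) and Hbegf, a ligand of the EGF receptor, by 3.41 (SE 0.11), while F3, the gene for tissue factor, fell by 2.08 on the log2 scale (SE 0.12). Lif was also higher in Ace at 24 hours (1.5, SE 0.24). In 5FU 4 rose and 3 fell at 6 hours and 3 rose and 5 fell at 24 hours. In Ace none rose and 4 fell at 6 hours, and 2 rose and 3 fell at 24 hours, and in Dox at 6 hours 4 rose and 3 fell. Thbs1, which encodes thrombospondin, fell in 5FU (-1.93, SE 0.19) and Ace (-1.37, SE 0.19) at 6 hours.

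Within groups the members varied together. Over the 65 libraries, with each group's mean of log2 CPM removed, 44 of the 45 pairs had a correlation above 0, with a median of 0.372. Over all pairs of 12461 genes in the same libraries the median was -0.001, and 49.8% of pairs were above 0. Without the 4 libraries that stood apart 42 of the 45 member pairs were above 0, with a median of 0.367. The pairs Jun and Ier3 (0.771), Jund and Ier3 (0.648), Jun and Jund (0.626) and Fos and Junb (0.618) were highest, and Ier3 and Myc (-0.038) was the pair below 0. Over the 10 group means 39 of the 45 pairs were above 0, with a median of 0.392. Junb and Egr1 (0.922), Fos and Junb (0.891), Fosl2 and Junb (0.889) and Fos and Fosb (0.867) were highest, and Jund and Myc (-0.286) lowest. These correlations are descriptions and were not tested.

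**Figure D4:**
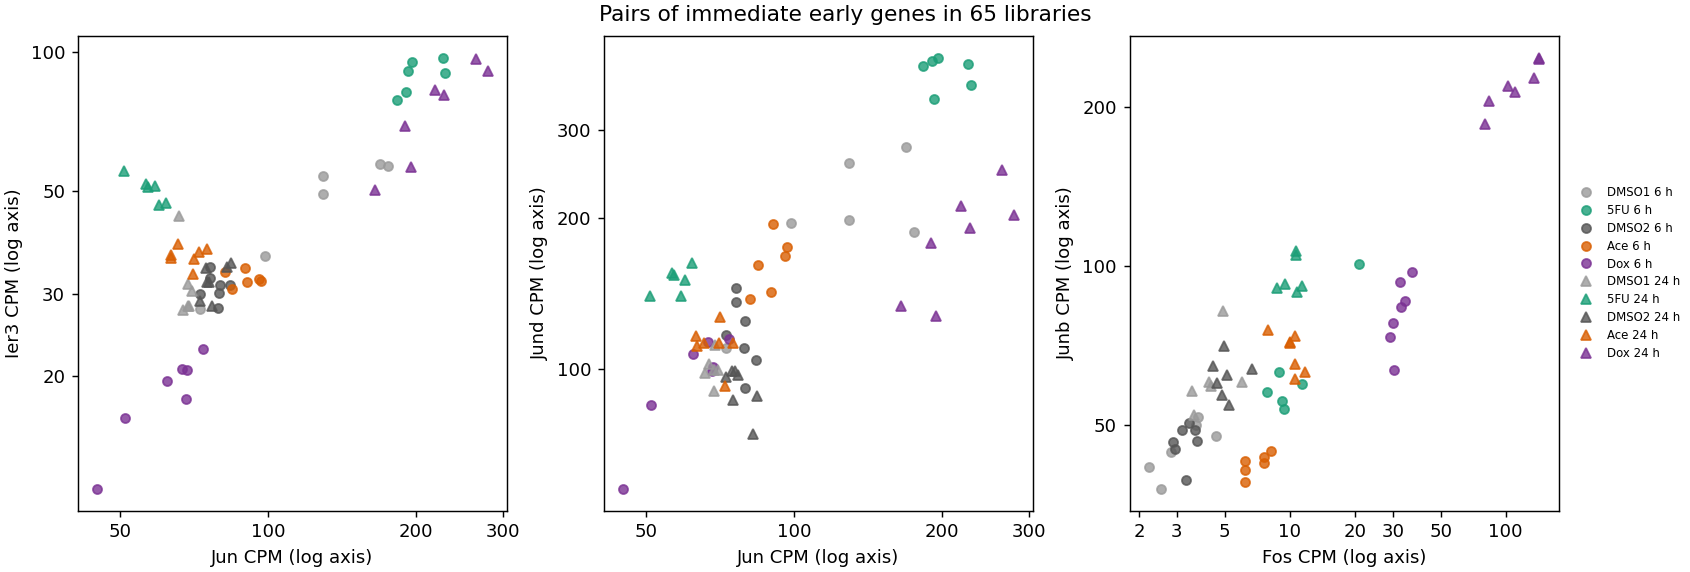
CPM of pairs of members on log axes in 65 libraries, circles for 6 hours and triangles for 24 hours, coloured by treatment. DMSO1 libraries at 6 hours run from 72.6 to 175 CPM for Jun, 110 to 277 CPM for Jund and 27.9 to 57.3 CPM for Ier3. Library 3 is lowest for each. Jund does not follow Jun throughout, as library 1, highest for Jun, holds 187 CPM of Jund. The Dox libraries at 24 hours hold the highest Fos and Junb, from 80.0 and 186 CPM upward.

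The genes whose group means followed a member most closely were found by Pearson's r over the 10 group means of log2 CPM, among 12461 genes with a mean of at least 1 CPM. For Fos they were Cib1 (0.985), Rprm (0.981) and Abhd17a (0.981), and for Egr1 P2rx3 (0.973), Baz2a (0.970) and Tjap1 (0.966). For Jun they were Sik1 (0.947), Wtap (0.937) and Bcl2l13 (0.928), and for Myc Ptk2 (0.966), Samd1 (0.960) and Lgr4 (0.956). With 10 points and so many genes, high values of r are to be found for any member.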

How the data were processed

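PolyA RNA of 65 cultures was measured. Per the paper's methods, the authors assigned reads to rat Ensembl transcripts with kallisto 0.46.0, used tximport to sum to Entrez genes and left out low genes. The estimated counts deposited are whole numbers without normalization and were used as they stand. Kallisto divides reads among similar transcripts by estimation. Symbols came from RefSeq (GRCr8) for 14009 of 14554 genes, for names only. Groups came from the labels.

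Counts were scaled by TMM (factors from 0.859 to 1.07) and fitted with edgeR 4.0.16 in R 4.3.3 (glmQLFit, glmQLFTest), 1 model over 10 groups with 20 contrasts and Benjamini-Hochberg adjustment over all genes. A filter at 10 counts in any library left all genes in. FDR below 0.01 was the threshold. The steps were tested on simulated data. Log2 CPM used a prior count of 2. Alternatives are given in the closing section.

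The members and lists were chosen with earlier results of these data known. Named were all 10 members, up to 3 called genes per list and drug comparison, those with the largest change above a mean count of 100, and the 3 genes most like Fos, Egr1, Jun and Myc. The set of libraries that stood apart was chosen after seeing the data, first as 3 libraries and then as 4; both versions were run. Erythroid, macrophage and smooth muscle markers were also counted. In Dox at 24 hours 2 of 2, 1 of 10 and 2 of 6 rose, against 40.4% of all genes. Of the same lists 0, 8 and 4 fell, against 41%. A comparison of the proteins was not made here.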

Additional observations from a re-analysis of the deposited data

Results flagged for a closer look

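In 100 sets of member and group, 9 had a highest or lowest library whose gap to the others passed Dixon's 95% value; chance flags about 1 in 20 such sets. Library 1 of 5FU at 6 hours was set apart for Fos (20.8 CPM), Fosb (12.6 CPM) and Junb (101 CPM), each the highest of its group. Library 1 of DMSO1 at 24 hours was set apart for Junb (82.4 CPM) and Ier3 (44.3 CPM), where it was highest, and for Myc (4.5 CPM), where it was lowest. Library 1 of DMSO1 at 6 hours was highest for Fosl2 (8.46 CPM), library 5 of DMSO2 at 24 hours for Fos (6.70 CPM) and library 4 of DMSO2 at 24 hours for Myc (20.7 CPM).

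Drug effects that differed between 6 and 24 hours, by a test of the difference itself in edgeR, are the others. The log2 fold change in 5FU was lower at 24 hours for Fosb (-2.59), Jun (-0.90) and Ier2 (-0.62). In Dox it was higher at 24 hours for Fosb (3.11), Ier3 (1.98), Jun (1.84), Jund (1.31), Myc (1.21), Fos (1.18), Fosl2 (1.09), Egr1 (1.04), Junb (1.02) and Ier2 (0.83). In the fits that left out 1 library each, all 10 members were called in all 28 for Dox, and the 3 members named for 5FU in all 24.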

How the results depend on the processing

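No paired analysis was possible because the columns of the count table carry no replicate numbers. No member's call turned its direction under any alternative. The counts of members called stayed within 1.5 times with DESeq2's Wald test, DESeq2's size factors, library size only and filterByExpr (14494 genes). A fit with no filter was the same as the main fit, since the main filter left all genes in. Requiring an absolute log2 fold change of at least 1 left 3 (5FU), 1 (Ace) and 2 (Dox) at 6 hours, 2 (5FU) and 0 (Ace) at 24 hours, 0 for DMSO1 against DMSO2 at 6 hours, and 1, 0 and 0 for time in DMSO1, DMSO2 and both. It left 1 for the change of the 5FU effect with time, 2 for Dox against Ace and 2 for Ace against 5FU at 6 hours and 1 for the latter at 24 hours. An FDR below 0.1 gave 1 for DMSO1 against DMSO2 at 24 hours, 6 and 1 for the change of the 5FU and Ace effects with time, and 8 and 4 for Ace against 5FU at 6 and 24 hours. A fit of the compared groups only gave 8 for Ace at 24 hours (Fosb, Jun, Jund and Ier3 added), 2 for the change of the Ace effect with time and 6 for Ace against 5FU at 24 hours; the last was 4 without the libraries that stood apart, whether 3 or 4 were left out. The cause was not tested. Library size only moved the median of all genes by -0.15 in Dox at 6 hours, where Jund (-0.45) and Ier2 (-0.28) were then called lower. Without library 1 of DMSO1 at 24 hours the 5FU effect on Myc changed with time (-0.73, adjusted p = 0.00097), and without the 4 libraries that stood apart the effect on Junb did (0.42, against 0.11; 0.43 without the first 3). Both sets were chosen after seeing the data, the second after the results of the first. They parted for 2 calls: Myc in Dox at 24 hours was called with 3 left out (adjusted p = 0.0081) and not with 4 (adjusted p = 0.018), and Jund in Dox against 5FU at 24 hours the other way round (adjusted p = 0.015 and 0.0047). Counts of 9 to 43 reads limit Fosb in the controls.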
